A study of Mus musculus with 4 samples.

Results

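The troponin and tropomyosin genes of soleus, a slow-twitch calf muscle, were examined for a difference between mice without hormone-sensitive lipase and wildtype mice. A probe set is a group of short probes on the array that reads 1 transcript. The 10 genes were chosen by name, as the fast, slow and other isoforms of troponin T, I and C and of tropomyosin. The platform annotation gave 14 of the 12488 probe sets 1 gene symbol that is among them. These 14 covered all 10 genes, of 8252 genes that the annotation names in this way, 6 genes with 1 probe set and 4 genes (Tnnt1, Tnnc2, Tpm2 and Tpm3) with 2. The fast isoforms were Tnnt3, Tnni2, Tnnc2 and Tpm1, the slow isoforms Tnnt1, Tnni1, Tnnc1 and Tpm3, and Tnnt2 and Tpm2 were put in neither class.

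The HSL-null pool was soleus of 5 female mice aged 6 months that are null for the lipase, which Lipe encodes. The wildtype pool was soleus of 5 female mice of the same age. The strain is not given in the sources used here, nor is the allele or any treatment. Each pool was measured on 2 arrays that the labels call technical duplicates, so that there was 1 biological sample per genotype. No p-value was therefore computed, and every error below is the spread between duplicate arrays and holds nothing of the variation between animals. Probe sets of different genes bind with different strength, so that an intensity does not rank 1 gene above another. The percent of the highest intensity is given only to show how near a signal lay to the top of the array's scale, and sums over marker genes only to compare arrays.

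Troponin and tropomyosin make the thin filament of striated muscle sensitive to calcium. Tropomyosin lies along actin and covers the sites that myosin binds, troponin T ties the troponin complex to tropomyosin, troponin I holds the complex in the inhibited state, and troponin C binds calcium and releases the inhibition. Fast and slow fibres use isoforms of these proteins from separate genes, and a change in fibre type is commonly read from the balance between them. In RNA of whole muscle, fewer fibres of a type and less RNA per fibre cannot be told apart. Lipe itself measured 16.2 and 19.4 on the HSL-null arrays and 71.4 and 70.2 on the wildtype arrays (log2 difference -2.0 ± 0.13); where its probes lie relative to the deleted part is not given in the sources used here. The highest intensity on each array was 6183.1 and 5940.0 in HSL-null and 6088.5 and 5645.9 in wildtype, and on all 4 arrays it belonged to a probe set of slow troponin T.

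Fast and slow isoforms of troponin and tropomyosin had nearly the same signal in both pools. Of the 14 probe sets, 11 passed the filter on dim signal, a mean intensity of at least 27.7, and these 11 covered all 10 genes. Their log2 differences, HSL-null minus wildtype, lay between -0.060 and 0.093, at most a 1.07-fold difference. Each HSL-null array was paired with each wildtype array, and a probe set counted as separated if its 4 pairs shared a sign and each reached 1.5-fold. By this rule 0 of the 11 were separated, where 0.451% of the 6208 probe sets above the filter were. In 8 of the 11, the difference between genotypes was smaller than the larger gap between duplicate arrays of 1 genotype. The 3 exceptions were Tnni2, Tnni1 and Tnnc1.

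**Figure D1:**
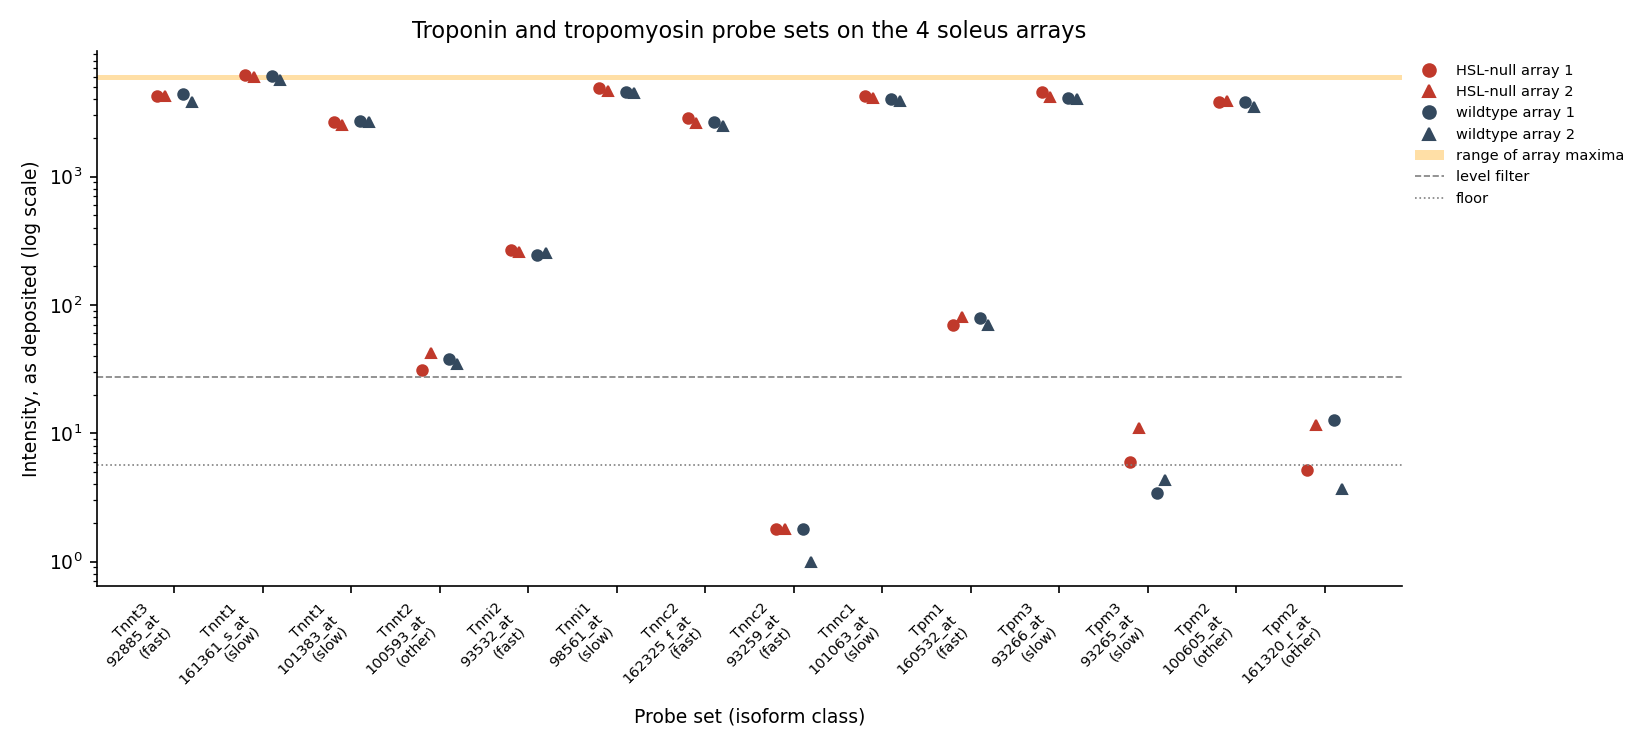
Intensity as deposited, on a log scale, of the 14 troponin and tropomyosin probe sets on the 4 arrays, with HSL-null in red left of wildtype in blue. Points are single arrays, the band is the range of the highest intensity per array (5645.9 to 6183.1), and the lines mark the level filter (27.7) and the floor (5.7). In the 11 probe sets above the filter the red and blue points lie almost level.

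Troponin T was read by the fast isoform Tnnt3 and the slow isoform Tnnt1. Tnnt3 measured 4224.1 and 4256.3 on the HSL-null arrays and 4418.6 and 3829.8 on the wildtype arrays. Both HSL-null values lay between the wildtype values, so that the pools overlapped. The log2 difference was 0.044 ± 0.10 (SE of duplicates), and the signal stood at 67.8 to 72.6% of the highest intensity on its array.

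The brighter probe set of Tnnt1 (161361_s_at) measured 6183.1 and 5940.0 on the HSL-null arrays and 6088.5 and 5645.9 on the wildtype arrays. It was the brightest probe set on each array, and its pools overlapped, with a log2 difference of 0.048 ± 0.062. The dimmer probe set of Tnnt1 (101383_at) measured 2644.4 and 2505.3 on the HSL-null arrays and 2712.5 and 2654.2 on the wildtype arrays. Here both HSL-null values lay below both wildtype values, by a log2 difference of -0.060 ± 0.042. This probe set read at 42.2 to 47.0% of the highest intensity per array and kept the order of its arrays under median centring (-0.093), quantile normalization (-0.12) and centring on bright probe sets (-0.11). Without HSL-null array 2 the difference was -0.021 and without HSL-null array 1 it was -0.099. The probe sets of Tnnt1 thus differed in sign, and the log2 ratio of the dimmer to the brighter one was lower in HSL-null on all 4 array pairs, by -0.11 ± 0.040. The suffix _s marks probes that can be shared between related transcripts, and whether the sign at the array's maximum is that of the transcript was not tested.

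Tnnt2 encodes the troponin T of heart, which skeletal muscle uses during development. It measured 31.3 and 42.5 on the HSL-null arrays and 37.9 and 34.9 on the wildtype arrays, just above the filter. The HSL-null values lay on both sides of the wildtype values, and the log2 difference was 0.0041 ± 0.23.

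Troponin I was read by 1 probe set for each isoform, and both were slightly higher in HSL-null. The fast isoform Tnni2 measured 270.0 and 256.6 on the HSL-null arrays and 244.9 and 254.5 on the wildtype arrays. The pools did not overlap, though the lower HSL-null array lay only 0.012 above the higher wildtype array on the log2 scale. They overlapped with median centring (0.043) and with centring on bright probe sets (0.028), but not with quantile normalization (0.098) or cyclic loess (0.093). The difference as deposited was 0.076 ± 0.046, at 4.0 to 4.5% of the highest intensity per array, so that this fast isoform was read far below the array's limit.

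The slow isoform Tnni1 measured 4880.4 and 4675.6 on the HSL-null arrays and 4602.1 and 4507.3 on the wildtype arrays. Both HSL-null values lay above both wildtype values, with a log2 difference of 0.069 ± 0.034 at 75.6 to 79.8% of the highest intensity. With median centring the Tnni1 pools overlapped (0.035), and with quantile normalization the difference was 0.0074.

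Troponin C, the calcium sensor, gave nearly the same difference for both isoforms. The fast isoform Tnnc2 measured 2854.7 and 2630.0 on the HSL-null arrays and 2679.1 and 2496.9 on the wildtype arrays (probe set 162325_f_at), at 44.0 to 46.2% of the highest intensity. HSL-null array 2 lay below wildtype array 1, so that the pools overlapped, and the log2 difference was 0.083 ± 0.078. The suffix _f marks probes that can match a gene family. The other Tnnc2 probe set (93259_at) read 1.8 and 1.8 on the HSL-null arrays and 1.8 and 1.0 on the wildtype arrays, under the floor of 5.7 on all 4, and held no information on a difference.

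The isoform Tnnc1, which slow fibres share with heart, measured 4276.6 and 4132.5 on the HSL-null arrays and 4025.6 and 3880.8 on the wildtype arrays. The pools did not overlap, with a log2 difference of 0.089 ± 0.036 at 66.1 to 69.6% of the highest intensity. The HSL-null values lay above both wildtype values as deposited and with cyclic loess (0.054), but not with median centring (0.055) or quantile normalization (0.0070).

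The upstream sequences of the troponin C pair are shown because this fast and this slow isoform had nearly equal differences and both had an entry in the sequence table. Each is the 250 bases before the RefSeq start of the gene in build GRCm38.p6, read 5′ to 3′ on the gene's strand. Tnnc2 lies on the minus strand at chr2:164779735-164779984 and Tnnc1 on the plus strand at chr14:31208062-31208311. Capitals mark the E-box CANNTG, the site type of myogenic factors such as MyoD; the M-CAT element CATTCC, bound by TEAD factors; and the CACC box CCACCC, each on either strand.
Tnnc2: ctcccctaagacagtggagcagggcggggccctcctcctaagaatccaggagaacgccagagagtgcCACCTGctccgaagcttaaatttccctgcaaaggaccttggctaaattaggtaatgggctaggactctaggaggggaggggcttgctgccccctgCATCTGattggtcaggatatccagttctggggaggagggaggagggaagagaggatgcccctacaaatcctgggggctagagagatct
Tnnc1: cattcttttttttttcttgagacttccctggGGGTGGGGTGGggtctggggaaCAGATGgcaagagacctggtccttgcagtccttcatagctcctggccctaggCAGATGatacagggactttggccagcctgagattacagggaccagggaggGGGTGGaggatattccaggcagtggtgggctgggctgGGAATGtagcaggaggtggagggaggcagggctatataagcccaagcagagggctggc
Counted from the start, the Tnnc2 window held 2 E-boxes, from base -183 and from base -88. The Tnnc1 window held 2 E-boxes, from base -197 and from base -145, 1 M-CAT element from base -58 and 3 CACC boxes, of which 2 overlap by their last and first base. The MEF2 motif, CTA and TAG with any 4 bases between, and the exact letters TATAAA of the TATA box had no match in these windows. Variants of the TATA box were not searched, and the Tnnc1 window holds the letters tatataag near its end.

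Of the 10 genes, 8 had an upstream sequence in the RefSeq table, in 11 entries, and Tnnt3 and Tnni2 did not. Counted over entries, since 3 of the genes have 2, E-boxes stood in 11 of the 11, against 66.2% of the 32851 entries in the table. CACC boxes stood in 6 of 11 (Tnnc1, Tnni1, Tnnt1, Tpm2 and Tpm3), against 28.1%, and the M-CAT element in 3 of 11 (Tnnc1, Tnnt2 and Tpm1), against 12.6%. The TATA box, searched only as the exact letters TATAAA, stood in 1 of 11 (Tnnt1), against 12.4%. The MEF2 motif stood in 0 of 11, against 3.20%. The 2 windows of Tnni1 overlap and share CACC boxes and E-boxes, so that the same sites count in both entries. These are matches of letters in a 250-base window.

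In the gene order of the same assembly, troponin I and T genes stood side by side. Tnni2 and Tnnt3, both fast, lay on chromosome 7 with 1 protein-coding gene between them, Lsp1. Tnni1 and Tnnt2 lay on chromosome 1 with 1 between them, Lad1, and Tnnt1 lay on chromosome 7 next to Tnni3, the troponin I of heart, with 0 between them. The neighbours differed from wildtype by 0.076 and 0.044 on the log2 scale for the fast pair and by 0.069 and 0.0041 for Tnni1 and Tnnt2. Tnni3 measured 12.3 and 5.1 on the HSL-null arrays and 9.6 and 14.4 on the wildtype arrays, below the filter.

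The tropomyosin genes each give several proteins by alternative promoters and splicing, in muscle and in other cells, so that a probe set need not read the sarcomeric form alone. Tpm1, the alpha form of fast fibres and heart, measured 70.4 and 80.1 on the HSL-null arrays and 79.4 and 70.0 on the wildtype arrays. The values interleaved, with a log2 difference of 0.010 ± 0.13 at 1.14 to 1.35% of the highest intensity.

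Tpm3, the form of slow fibres, measured 4530.1 and 4158.4 on the HSL-null arrays and 4077.4 and 4061.2 on the wildtype arrays (probe set 93266_at). The pools did not overlap, and the log2 difference of 0.093 ± 0.062 was the highest among the 11 probe sets above the filter. HSL-null array 1 stood apart from the other 3 values, and the pools overlapped with median centring (0.060) and with centring on bright probe sets (0.045), though not with cyclic loess (0.058). The other Tpm3 probe set (93265_at) read 6.0 and 10.9 on the HSL-null arrays and 3.4 and 4.3 on the wildtype arrays, where both wildtype values were under the floor, and no fold is given.

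Tpm2, the beta form found in both fibre types, measured 3781.9 and 3879.8 on the HSL-null arrays and 3809.3 and 3479.6 on the wildtype arrays (probe set 100605_at). HSL-null array 1 lay below wildtype array 1, so that the pools overlapped, with a log2 difference of 0.073 ± 0.068 at 61.2 to 65.3% of the highest intensity. Its other probe set (161320_r_at) read 5.2 and 11.7 on the HSL-null arrays and 12.6 and 3.7 on the wildtype arrays, around the floor and in no order by genotype. The suffix _r marks a set for which fewer of the usual probe rules could be met.

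**Figure D2:**
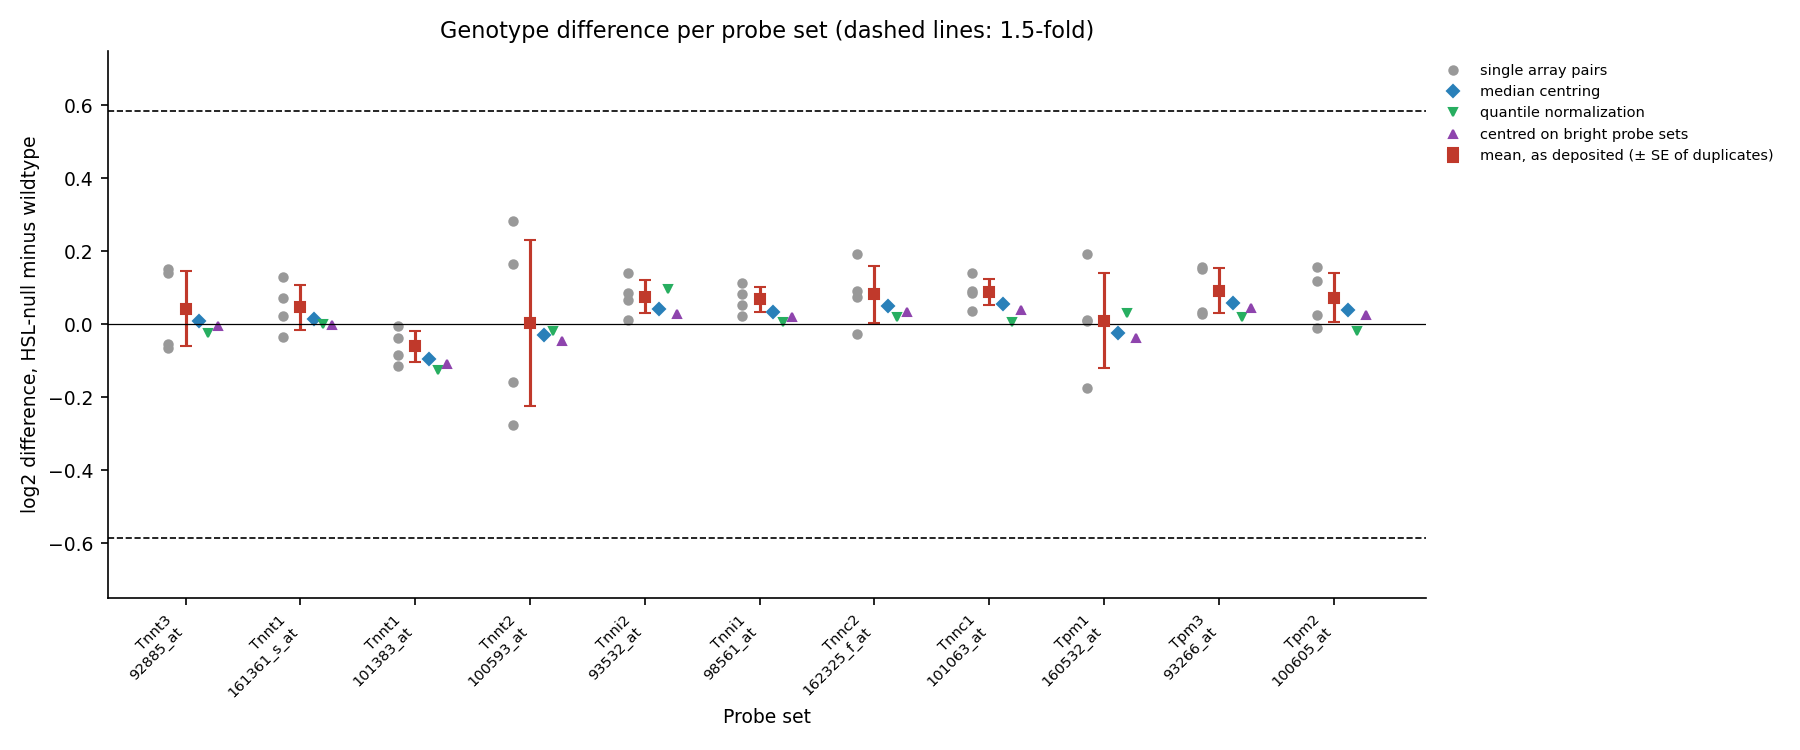
log2 difference (HSL-null minus wildtype) of the 11 probe sets above the filter: grey points are the 4 array pairs, red squares the mean as deposited with the SE of duplicates, and the other symbols the mean under 3 other scalings. All single pairs lie within 0.28 of 0, inside the dashed lines at 1.5-fold, and most means move towards 0 when the arrays are centred in another way.

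Small differences above 0 were common to bright probe sets on these arrays. Of the 11 probe sets, 10 had a mean difference above 0. On all 4 array pairs, 4 lay above 0 (Tnni2, Tnni1, Tnnc1 and Tpm3) and 1 below (the dimmer Tnnt1 probe set), where 19.5% of all probe sets above the filter did so above 0 and 21.1% below. Of the 11, 8 had a mean intensity of at least 2000. Among the 141 other probe sets that bright, 110 had a difference above 0, 30.5% lay above 0 on all 4 pairs and 4.26% below, and their median was 0.045. The median was 0.069 over the 11 and -0.0022 over all 6208 probe sets. Of the 8 bright ones, 7 had their lowest value on wildtype array 2 and 5 their highest on HSL-null array 1. The other bright probe sets showed the same arrays as lowest and highest, with median log2 deviations of 0.048 on HSL-null array 1, -0.0023 on HSL-null array 2, 0.0022 on wildtype array 1 and -0.053 on wildtype array 2.

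After each array was divided by its own deviation of bright probe sets, an adjustment chosen after the values were seen, the bright members other than the dimmer Tnnt1 probe set (-0.11) differed by -0.0046 (Tnnt3) to 0.045 (Tpm3). Tnni1 and Tnnc1 then still lay above 0 on all 4 pairs, at 0.020 and 0.041. Among the 141 other bright probe sets the log2 differences ran from -0.26 to 0.22, and 0 of them reached 1.5-fold. Whether the upper end of the intensity scale compresses differences was not tested.

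**Figure D3:**
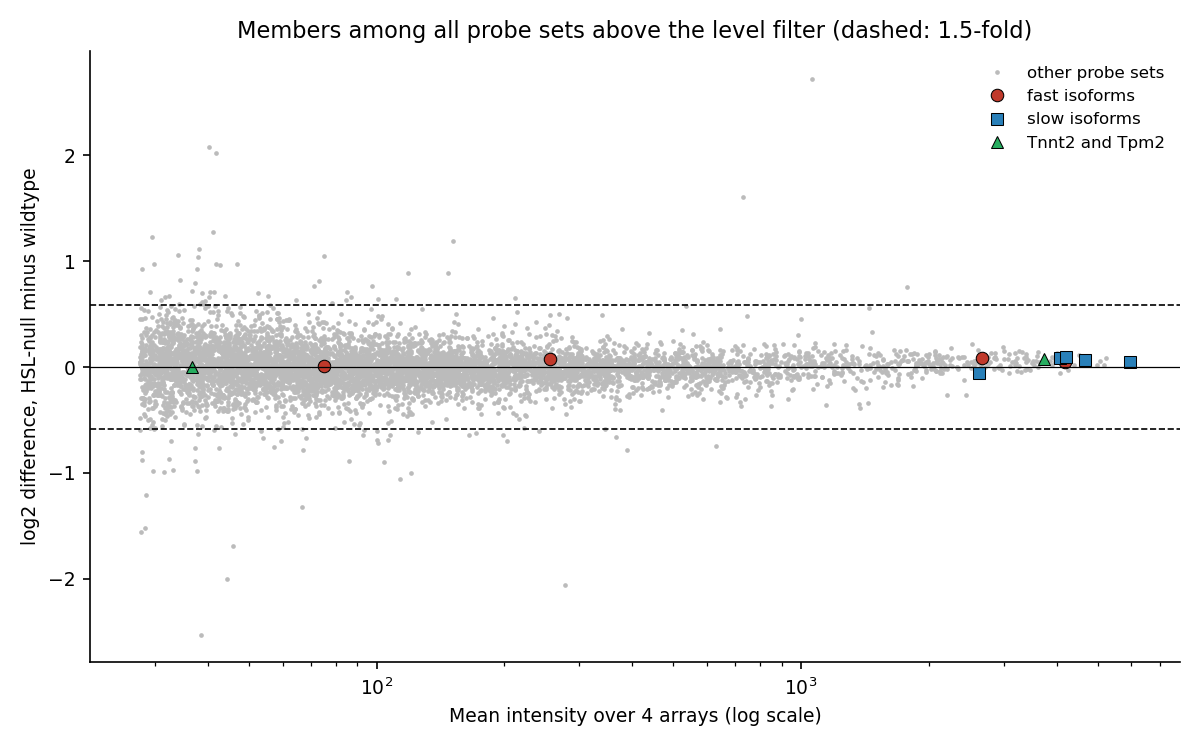
log2 difference (HSL-null minus wildtype) against mean intensity over the 4 arrays (log scale) for the 6208 probe sets above the filter, with the 11 troponin and tropomyosin probe sets as large symbols. The spread narrows with intensity, and the members lie in the narrow band near 0, 8 of them at the bright end.

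As medians, the 4 fast probe sets above the filter differed by 0.060 and the 5 slow ones by 0.069, and without wildtype array 2 the fast median had the opposite sign (-0.014). The scaling of the arrays does not cancel in these medians, which were 0.027 (fast) and 0.035 (slow) with median centring. Fast and slow isoforms were then set against each other within each array, where a scaling factor of the array cancels. The log2 ratio of fast to slow signal differed between HSL-null and wildtype by -0.0041 ± 0.060 (SE of duplicates) for troponin T on the brighter Tnnt1 probe set. It differed by 0.0075 ± 0.043 for troponin I and by -0.0057 ± 0.042 for troponin C. In each of these 3 pairs, 2 of the 4 array pairs lay above 0 and 2 below.

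For tropomyosin the ratio of Tpm1 to Tpm3 differed by -0.083 ± 0.18, with 1 array pair above 0 and 3 below. With the dimmer Tnnt1 probe set the troponin T ratio differed by 0.10 ± 0.098, with 3 array pairs above 0 and 1 below. In all 5 ratios the HSL-null and wildtype arrays overlapped. For troponin I, the difference was 0.091 with quantile normalization and 0.062 with cyclic loess, and for tropomyosin it was 0.010 and -0.042. In both pairs a dim fast probe set was set against a bright slow one. Both methods scale bright and dim probe sets differently, and the cause of the shifts was not tested.

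**Figure D4:**
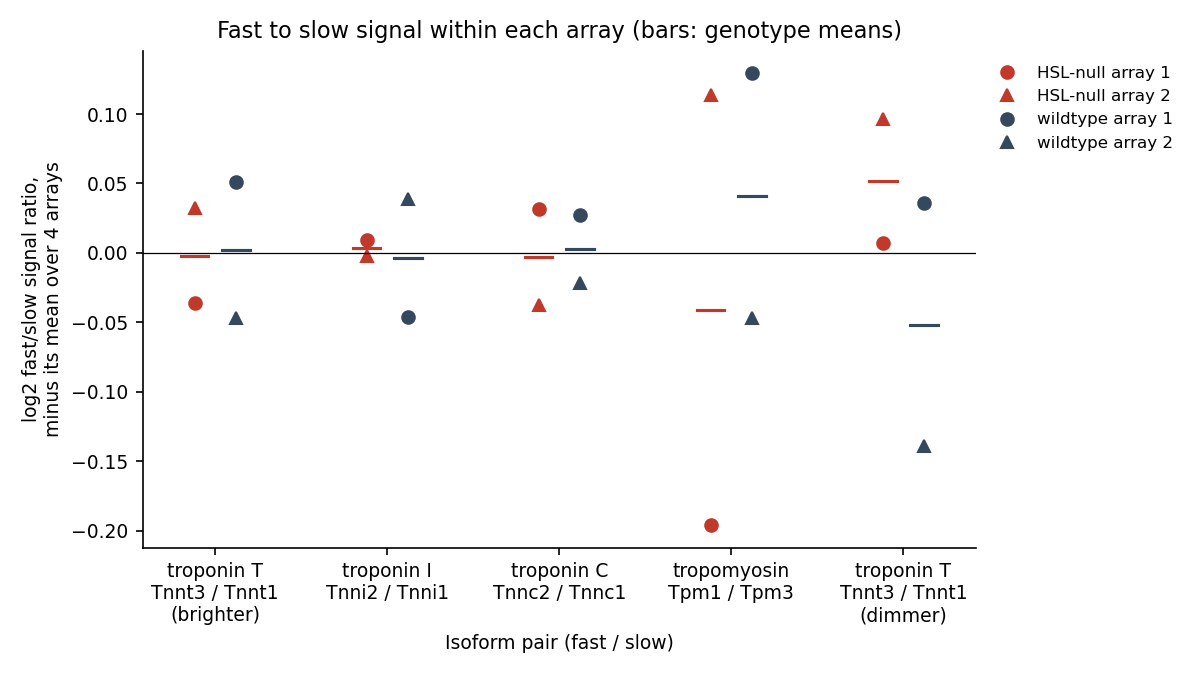
log2 ratio of fast to slow signal on each array, minus its mean over the 4 arrays, for 4 isoform pairs and for troponin T with the dimmer Tnnt1 probe set, with HSL-null in red left of wildtype in blue. Points are single arrays and bars the genotype means, and in all 5 ratios the points of the genotypes overlap.

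Other genes of the sarcomere were listed for comparison. Of 20 further thin filament genes, 9 were on the array, all above the filter, and 0 were separated. Their median was -0.0060, with 3 above 0 and 2 below 0 on all 4 array pairs. The shares above and below over all probe sets that passed the filter were 19.5% and 21.1%. The skeletal actin Acta1 measured 5465.3 and 5321.6 on the HSL-null arrays and 5107.5 and 5072.3 on the wildtype arrays, above wildtype on all 4 pairs (0.083 ± 0.020) and at 83.9 to 89.8% of the highest intensity. Nrap, a protein of the myofibril's ends, differed by -0.036 ± 0.028. The largest difference among the 9 was that of Xirp1, named after its value was seen, at -0.35 ± 0.021. Tpm4, the tropomyosin mainly of non-muscle cells, differed by 0.12 ± 0.12.

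Fast-fibre genes outside the thin filament included 2 that were separated. Of 7 such genes, 5 were above the filter, 2 were separated higher and 0 lower, and the median was 0.11. Over all 6208 probe sets above the filter, 0.451% were separated. The list was chosen with earlier results of these data known, so that the count of 2 is no independent finding. Myh4, which encodes the fastest myosin heavy chain, measured 1897.1 and 1781.6 on the HSL-null arrays and 279.2 and 277.3 on the wildtype arrays (log2 difference 2.72 ± 0.046). Actn3, the fast-fibre alpha-actinin of the Z-disc, measured 1115.6 and 1078.1 on the HSL-null arrays and 336.4 and 385.2 on the wildtype arrays (1.61 ± 0.10). The other 3 above the filter, named after their values were seen, overlapped between the pools: Myh1, another fast myosin heavy chain, at 0.11 ± 0.12, and the fast myosin light chains Myl1 at 0.074 ± 0.059 and Mylpf at -0.27 ± 0.24. The fast troponins and tropomyosin, on the same arrays, differed by 0.010 to 0.083, and with 1 pool per genotype the contrast with Myh4 and Actn3 could not be tested. Among 6 slow-fibre genes outside the thin filament, 5 were above the filter and 0 separated, with a median of 0.016. On all 4 array pairs 0 of the 5 lay above 0 and 2 below, neither of them Myh7 or Myl3. Over all probe sets above the filter these shares were 19.5% and 21.1%. Myh7, the slow myosin heavy chain, differed by 0.024 ± 0.068 and Myl3, a slow myosin light chain, by 0.016 ± 0.053. The 2 below 0 on all 4 pairs, named after their values were seen, were Myl6b at -0.29 ± 0.082 and Myh6, just above the filter, at -0.20 ± 0.086.

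Among regulators of fibre type, 0 of those above the filter were separated. These were myogenic, MEF2, TEAD, NFAT and calcineurin genes and related factors. Of 30 listed, 20 were above the filter, 4 lay above 0 and 3 below 0 on all 4 pairs, and the median was -0.014. Among all probe sets above the filter, 19.5% lay above 0 and 21.1% below on all 4 pairs. Mef2d, a transcription factor of muscle genes, differed by 0.040 ± 0.027. Rcan1, an inhibitor of calcineurin whose transcription calcineurin induces, measured 1078.9 and 1075.1 on the HSL-null arrays and 1207.9 and 1232.0 on the wildtype arrays (-0.18 ± 0.014), below wildtype on all 4 pairs and 1.13-fold lower.

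Markers of myofibres and of other cells were read beside these values. Of 5 myofibre markers 0 were separated, and their summed intensity was 16812.9 to 17397.0 in HSL-null and 16247.9 to 16907.7 in wildtype. Smooth muscle also uses Tpm1 and Tpm2; of its 7 markers 6 were above the filter and 0 separated, Cnn1 was under the floor on all 4 arrays, and the sum was 842.3 to 862.2 in HSL-null and 879.6 to 971.3 in wildtype. Of 8 adipocyte markers 4 were above the filter and 1 was separated lower, Adipoq (-1.06 ± 0.033), and the sum was 405.1 to 408.6 in HSL-null and 542.2 to 555.7 in wildtype. All 6 fibroblast markers on the array lay above 0 on all 4 pairs (sum 3938.6 to 4072.1 in HSL-null, 3448.2 to 3483.0 in wildtype), with Col1a1, a fibrillar collagen, at 0.48 ± 0.050 and Dcn, a matrix proteoglycan, at 0.079 ± 0.020. So did the 3 erythroid markers on the array (sum 2675.3 to 2791.2 in HSL-null, 2463.6 to 2564.4 in wildtype). Of 5 nerve markers, 2 were above the filter, and the sum was 224.1 to 240.0 in HSL-null and 206.9 to 248.9 in wildtype. On all 4 pairs, 0 adipocyte markers above the filter lay above 0 and 3 below, and 1 smooth muscle marker above and 2 below. Of the myofibre markers 1 lay above and 1 below, and of the nerve markers 0 and 0. Over all probe sets above the filter, 19.5% lay above 0 on all 4 pairs and 21.1% below. The beta-actin control, read at its 3′ and 5′ ends as a measure of RNA quality, had a ratio that was 0.816 and 0.823 in HSL-null and 0.688 and 0.706 in wildtype. The same ratio of the Gapdh control was 0.922 and 0.912 in HSL-null and 0.955 and 0.927 in wildtype, lower in HSL-null and by a smaller gap. The part of these in the small differences above was not tested.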

How the data were processed

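RNA of 2 pools of mouse soleus was measured on 4 arrays. The deposited values are 1 linear intensity per probe set, and how the authors corrected background and scaled the arrays is not given in the sources used here, nor is the software. Tested on the values, the mean with 2% trimmed from each end was 100.1 on every array, within the 5% tolerance for using them as they are. The column medians were 27.8 and 28.7 in HSL-null and 27.9 and 27.3 in wildtype. The scale is linear and uncentred by gene, and whether background was subtracted stays unknown.

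Names came from the platform annotation of the probe sets (10855 with 1 symbol, 396 with several, 1237 not listed), and the 14 member symbols were the same in RefSeq by gene ID. The 66 control probe sets were left out. Intensities were floored at 5.7 (25th percentile of the table) and put on the log2 scale, and probe sets with a mean of at least the table's median, 27.7, were kept (6208). Duplicate arrays count as 1 sample, so no test was made. SDs and SEs are over duplicate arrays. A gene with several probe sets was represented in its list and in the isoform pairs by the brightest. All member probe sets are named, and of another list only its separated genes (at most 4) or, without any, its brightest 2. Cnn1 is named as a marker under the floor, and Myh1, Myl1, Mylpf, Myh6, Myl6b and Xirp1 were added after their values were seen.

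The members and lists were chosen with earlier results of these data known. The call of separated probe sets was first tested on simulated data. Alternatives were median centring, quantile normalization and cyclic loess (limma 3.58.1, R 4.3.3), an offset of 10, no floor, the filter, the fold threshold, leaving out 1 array at a time, a replicate block (same-numbered arrays only) and the choice of probe sets; centring on probe sets of at least 2000 was added after seeing the data. For quantile normalization and loess, zeros became 0.1. Python 3.11.15, numpy 2.4.6, pandas 2.3.3 and matplotlib 3.10.9 were used. Sequences and gene order are from RefSeq (GRCm38.p6); the files name no build, so that gene coordinates are given only with the sequences.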

Additional observations from a re-analysis of the deposited data

How the results depend on the processing

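Of the troponin and tropomyosin probe sets above the filter, 0 were separated under each alternative run for that count, thresholds of 1.3-fold and 2-fold included, and 0 of all 14 with no filter. Below the filter, Tpm3 93265_at stood at 0.94 without HSL-null array 1 (0.50 with all arrays). Both wildtype values were replaced by the floor there, so that these sizes depend on it. The number on 1 side on all 4 array pairs, 5 as deposited, was 1 with median centring, 2 with quantile normalization, 3 when centred on bright probe sets (added after seeing the data), and 6 to 10 without 1 array (8 without either HSL-null array, 10 without wildtype array 1), where only 2 pairs remain. As deposited, 19.5% of all probe sets above the filter lay above 0 and 21.1% below on all 4 pairs. These shares were not computed under the other settings, so that the changing counts cannot be read as a trait of the members. The fast median (0.060) was -0.014 to 0.12 without 1 array, lowest without wildtype array 2. The slow median (0.069) was 0.0070 with quantile normalization and 0.020 when centred on bright probe sets. The troponin I ratio (0.0075) was 0.091 with quantile normalization and 0.062 with cyclic loess. Without 1 array, each of the 4 fast to slow ratios took both signs: -0.053 to 0.045 for troponin T, -0.035 to 0.050 for troponin I, -0.040 to 0.029 for troponin C and -0.24 to 0.072 for tropomyosin. Of 252 recomputed values, 24 moved by more than the spread between duplicates (for counts, more than 1.5 times), and the cause was not tested. Many of the others could not move. Leaving out 1 array shifts the difference of a probe set or a ratio by at most that spread. Centring of whole arrays and changes of the filter leave the ratios as they were. The tally is therefore no measure of how robust the values are. Labels give no pairing of same-numbered arrays, and their deviations correlated at -0.0865; with the replicate block, 7 probe sets lay on 1 side and 0 were separated. The count of all separated probe sets (28) was 175 with no filter, 95 at 1.3-fold, 14 at 2-fold, 10 with the filter at the 75th percentile and 82 to 109 without 1 array. The 2 arrays of 1 pool per genotype limit all differences to the precision of the arrays.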
